A study of Homo sapiens with 8 samples.

Results

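The DEAD-box and DEAH-box RNA helicases, named DDX and DHX after a motif of their ATP-binding core, were followed in ribosome-footprint data from IMR32 cells, a human neuroblastoma line with amplified MYCN. Of 60651 genes in the deposited table, 56 had a symbol made of DDX or DHX, a number and at most 1 further letter. A pair of these, DDX12B and DDX12P, were unprocessed pseudogenes, and DDX3Y was set aside by the rule, as were the eIF4A genes. That left 53 protein-coding genes, of which 47 had a mean of at least 1 TPM (a level corrected for transcript length, with the same total in every library) over the 8 libraries, among 11778 genes at that level. The other 6 were the germline helicases DDX4, DDX43 and DDX53, listed at 0 in every library, and the antiviral helicases DDX60, DDX60L and DHX58, none of which passed 0.08 TPM in any library.

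Ribosome profiling sequences the short mRNA fragments that ribosomes shield from nuclease. The study compared 4 libraries of cells exposed for 6 h to CR31B, a rocaglate related to silvestrol, with 4 libraries of cells given DMSO (0.1%), its solvent. The cells of both groups carried the wild-type genotype per the labels, were treated with cycloheximide before harvest, and were described as biological replicates. The single line is the only model used. A footprint level reflects the amount of an mRNA and its translation together, and the 2 cannot be told apart here. Among markers of adrenergic neuroblasts, PHOX2A, HAND2, GATA3, ISL1, DBH, CHGA and MYCN were at 1 TPM or more and TH was below. Markers of immune, epithelial and glial cells summed to at most 0.28 TPM in any library, and those of endothelial cells to at most 1.01 TPM. Of 6 mesenchymal markers, 2 (COL1A1 and FN1) were at 1 TPM or more.

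DEAD-box and DEAH-box proteins use ATP to remodel RNA or to strip proteins from it, at nearly every step of an mRNA's life, from transcription and splicing to export, translation and decay, and in the making of ribosomes. The eIF4A proteins, which unwind the 5′ ends of mRNAs for the scanning ribosome, belong to the DEAD-box family. Rocaglates clamp eIF4A onto purine-rich RNA, and DDX3X, a DEAD-box helicase that aids translation of mRNAs with structured 5′ leaders, has been described as another helicase they bind.

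Footprints of 4 helicases rose under CR31B and none passed as lower by the test used throughout, a limma fit of log2(TPM + 1) over all 11778 genes with Benjamini-Hochberg adjusted p under 0.05. DHX8 and DDX42, a pair of splicing helicases, and DDX56 and DDX27, a pair that act in ribosome biogenesis, were from 1.35 to 1.56 times their DMSO mean. The 4 are 8.51% of the 47 helicases, while 7.46% of all genes tested were called, 3.45% higher and 4.02% lower. With the replicate number as a block, which pairs the libraries, 5 helicases were higher (DHX38 added) and 2, DDX5 and DDX3X, lower, and that fit called 12.3% of all genes, 5.77% higher and 6.56% lower. At an unadjusted limma p under 0.05 there were 8 helicases higher (17.0%) and 5 lower (10.6%), against 12.0% and 11.3% of all genes. The log2 fold changes of the family ran from -0.43 in DDX5 to 0.62 in DHX8. The family median was 0.13, against 0.029 over all genes tested, and 33 of 47 members (70.2%) were above 0, against 54.1% of all genes. Without CR31B replicate 1 the family median was 0.032, with 28 of 47 above 0. The median over all genes in that fit was -0.005. The count of 4 depended on single libraries. It was 1, DHX8, without DMSO replicate 1, without DMSO replicate 2 or without DMSO replicate 4, and it was 2 without CR31B replicate 4. The split moved with the scaling of the libraries, as did the calls over all genes. With equal medians 3 helicases were higher and 1, DDX6, lower, beside 443 genes higher and 734 lower over all tested. After quantile normalization 4 were higher and 1, again DDX6, lower, beside 487 and 687 over all. After rescaling over protein-coding genes 5 were higher and 3 lower, beside 670 and 566 of 10382, where the unscaled fit gave 406 and 473 of 11778.

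**Figure D1:**
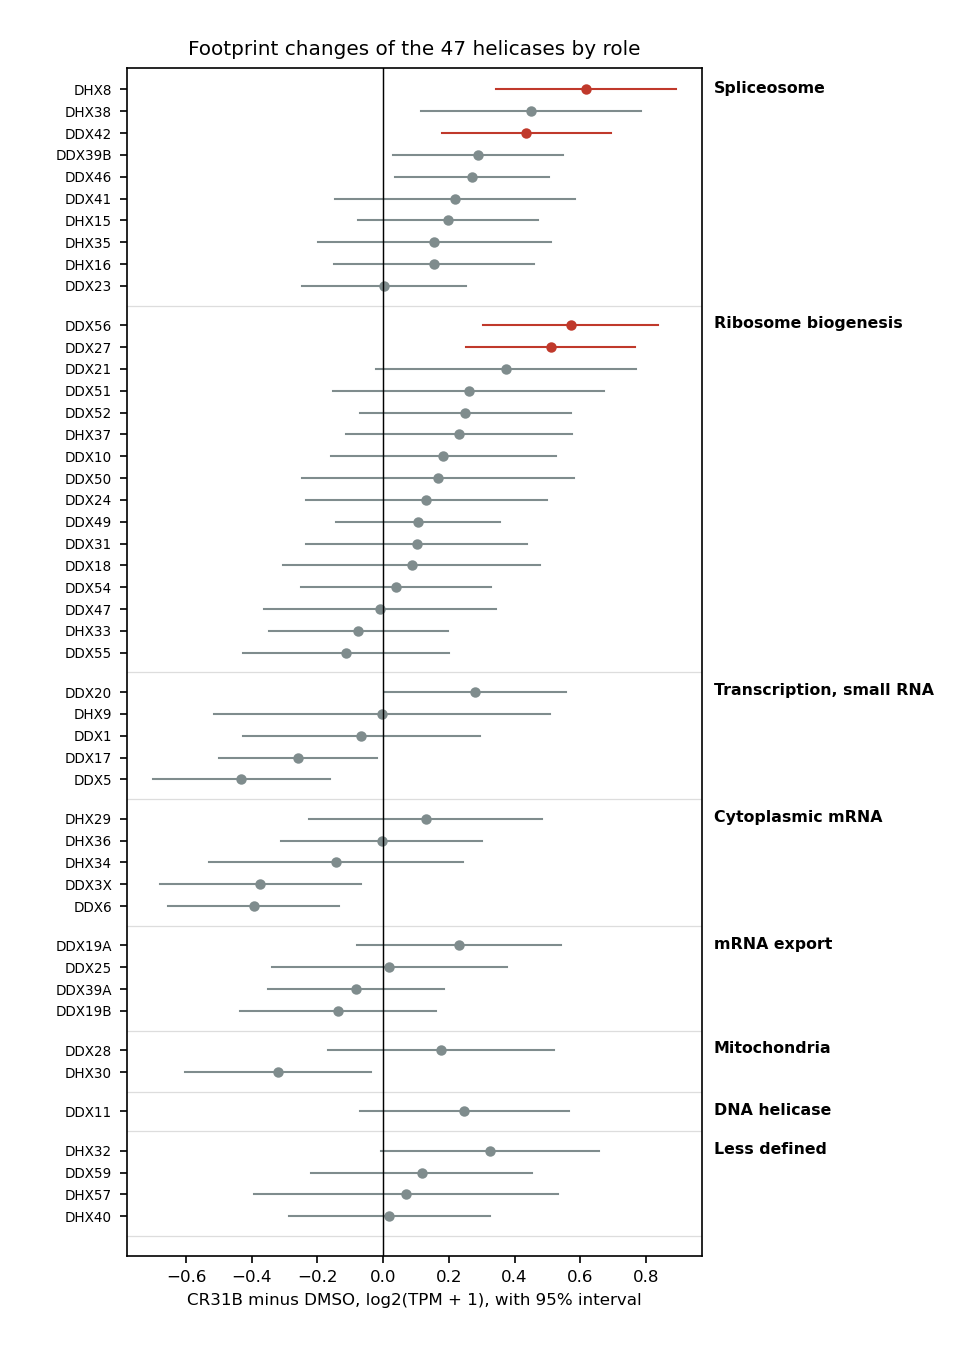
Log2 fold change (CR31B minus DMSO, log2(TPM + 1) scale) of each helicase with its 95% limma interval, grouped by role (DDX39B and DDX25 drawn once); red marks an adjusted p under 0.05. The 10 splicing helicases all lie at or to the right of 0, and DDX5, DDX6 and DDX3X lie farthest to the left.

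The level of the family differed widely among its members. Means over the 8 libraries ran from 1.01 TPM in DDX25 to 3598 TPM in DDX1, with a median of 26.9 TPM against 9.1 TPM for all genes tested. There were 14 members under 10 TPM, 26 from 10 to 100 TPM and 7 of at least 100 TPM. The 7 were DDX1, DDX39B, DDX3X, DDX23, DDX41, DDX5 and DDX39A. DDX1, which acts in tRNA ligation and RNA processing, ranked 22 of all genes tested and alone took from 50.0% to 61.3% of the family's summed TPM. DDX1 lies at chr2:15591178-15631111 (GRCh38), 309.5 kb from MYCN, the gene amplified in this line, and is known to be amplified together with MYCN in some neuroblastomas. Copy number was not measured in these files.

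DDX1 itself stood at 4077, 3955, 3192 and 2881 TPM across CR31B replicates 1 to 4 and at 3493, 4174, 3245 and 3772 TPM across DMSO replicates 1 to 4. The groups overlapped, and the log2 fold change was -0.067 (standard error 0.16, 95% interval -0.43 to 0.29, adjusted p = 0.854 by limma). The TPM of all members summed to 6474.5 ± 762 with CR31B and to 6482.4 ± 371 with DMSO (SD; n = 4 per group). Without DDX1 they summed to 2948.5 ± 266 and 2811.6 ± 144.

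**Figure D2:**
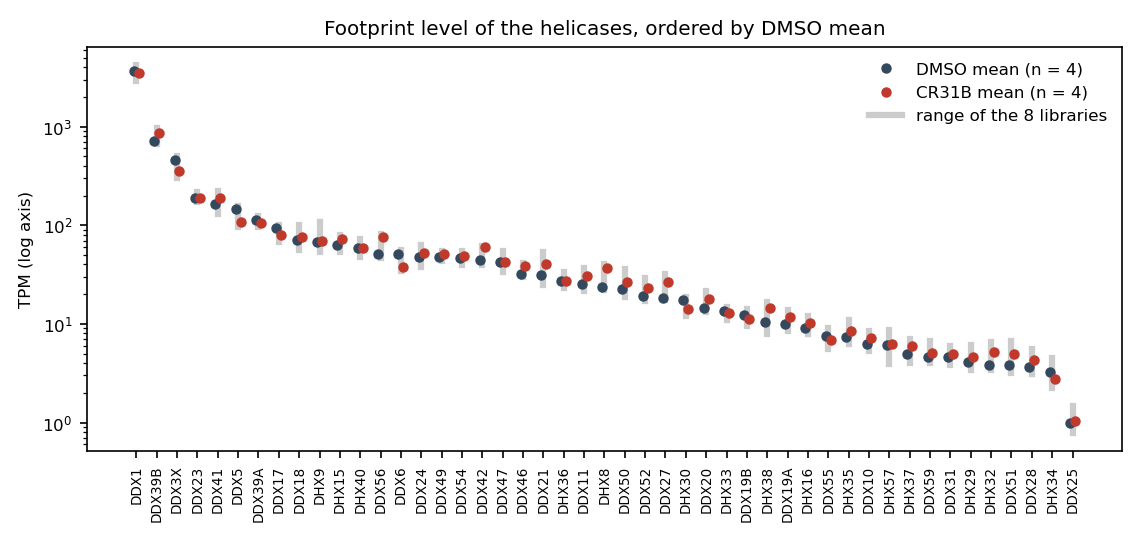
Mean footprint level (TPM, log axis) of each helicase in DMSO and CR31B (n = 4 each), ordered by the DMSO mean; grey bars span the 8 libraries. DDX1 stands apart near 3598 TPM and DDX25 is lowest near 1.01 TPM, while the group means of most members lie close together.

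The purine stretches in the 5′ leaders of 7 helicases are shown because rocaglates act on purine-rich RNA; these are DDX3X, the 4 helicases that rose, and DDX5 and DDX6, the members with the lowest log2 fold changes. Each line gives up to 30 bases around the longest run of purines (A or G in any order, sense strand only) in the leader of the gene's reference transcript in GENCODE release 29, with that run in capitals.
DDX3X: gggaactGAGAGAGGAAGAAGAGtgaaggc
DHX8: gccggctgtGAGGAAGGAGGttctgggcaa
DDX42: aagggggcGGAGAGGAAGGAGcgcggcggg
DDX56: ccGGGAAGtgacttcgtctccgaagccgat
DDX27: agaggtcgaacGGGGAGGGcggcaggggct
DDX5: AGAAGAAGGtgaggtcaagagagtgcagaa
DDX6: tgattccgtgcAAGAGAGcaagttactgct

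These windows lie in 5′ UTR exons at chrX:41333672-41333701 on the plus strand for DDX3X, chr17:43483999-43484028 (plus) for DHX8 and chr17:63774260-63774289 (plus) for DDX42. Those of DDX56, DDX27, DDX5 and DDX6 lie at chr7:44573973-44574002 (minus), chr20:49219308-49219337 (plus), chr17:64506492-64506521 (minus) and chr11:118786426-118786455 (minus), all on GRCh38. The DDX3X run of 16 purines was the longest of the 46 helicases with an annotated leader of at least 20 bases, and 7.07% of 9869 tested protein-coding genes had a run as long or longer. Its leader, of 969 bases, was also the longest of the 46, and the next was 631 bases in DDX39B. In the other helicases shown, the longest run was 13 bases in DDX42, 11 in DHX8, 9 in DDX5, 8 in DDX27, 7 in DDX6 and 6 in DDX56. Among helicases not shown, it was 14 bases in DHX32, 13 in DDX1 and 12 in DDX59. A run of at least 10 purines was found in 14 of the 46 leaders (30.43%), against 35.34% of all 9869. The leaders of the helicases were shorter, with a median of 148 bases against 211, and the lengths were not matched in this comparison. A run of at least 10 occurred in 48.26% of 344 genes called higher under CR31B and in 55.61% of 419 called lower. Their leaders were longer, with medians of 291.5 and 311 bases, and lengths were again not matched. Across the 46 helicases, Spearman's rho between the longest run and the log2 fold change was -0.042, and across all 9869 genes it was -0.09. A signed correlation cannot show an excess on both sides. These correlations are across genes, which are not independent replicates and share the same libraries, and are given as a description.

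DDX3X (ENSG00000215301.11, chrX:41333284-41364472) was at 432, 346, 301 and 346 TPM across CR31B replicates 1 to 4. In DMSO replicates 1 to 4 it was at 498, 409, 426 and 506 TPM. CR31B replicate 1 lay above DMSO replicates 2 and 3, so the groups overlapped, although CR31B was the lower library in all 4 replicate pairs. The mean was 356 ± 54.5 TPM under CR31B and 460 ± 49.2 TPM under DMSO (SD; n = 4 per group), or 77.4% of the DMSO level. The log2 fold change of -0.37 (standard error 0.14, 95% interval -0.68 to -0.068) did not pass, with adjusted p = 0.134 by limma and exact permutation p = 0.0857. With the replicate number as a block, the limma adjusted p was 0.0466 and DDX3X passed as lower. DDX3X ranked 321 by level among all genes tested and 3 within the family. Of the 28-base stretches of its coding sequence, 10.5% also occur in transcripts of other genes, among them the pseudogene DDX3P3 and the paralog DDX3Y, and how such reads were divided is not given in the sources used here.

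Helicases of the spliceosome, which drive its assembly, activation and release step by step, were all above 0, with 10 of 10 members and a median log2 fold change of 0.245. By the limma test 2 rose and 8 did not pass. Of all genes tested, 54.1% were above 0 and 3.45% were called higher, with a median of 0.029. Under the alternatives that tested all 10, from 9 to 10 were above 0 and the list median ran from 0.20 to 0.29. DDX39B is in this list and in that of mRNA export, and DDX25 is in the export and germline lists.

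DHX8 (ENSG00000067596.12, chr17:43483865-43610338), the homolog of yeast Prp22 that releases spliced mRNA, was at 40.6, 39.7, 37.4 and 30.5 TPM across CR31B replicates 1 to 4. In DMSO it was at 23.5, 22.2, 22.4 and 26.8 TPM. Every CR31B library lay above every DMSO library, and the mean rose from 23.7 ± 2.13 to 37.1 ± 4.55 TPM (SD; n = 4 per group). The log2 fold change was 0.62 (standard error 0.12, adjusted p = 0.0154 by limma, exact permutation p = 0.0286, the smallest that 4 against 4 libraries allow). DHX8 passed in each of the 16 alternative fits. None of its 28-base coding stretches occurs in another gene, but its exons overlap those of ETV4 on the opposite strand. ETV4 averaged 2.91 TPM, with a log2 fold change of 0.58 (adjusted p = 0.194 by limma). Whether reads were counted by strand is not given in the sources used here.

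DDX42 (ENSG00000198231.13, chr17:63773603-63819317), a helicase associated with the U2 particle, was at 61.3, 61.4, 55.5 and 59.9 TPM under CR31B and at 39.2, 39.4, 46.6 and 50.9 TPM under DMSO. The groups did not overlap, and the mean rose from 44.0 ± 5.71 to 59.5 ± 2.76 TPM (SD; n = 4 per group). The log2 fold change was 0.44 (standard error 0.12) with adjusted p = 0.0478 by limma, close to the threshold. That call held in 4 of 16 alternatives and was lost without any 1 of the 8 libraries, with adjusted p from 0.0270 to 0.130 over all 16. DDX42 exons overlap those of CCDC47 on the opposite strand, which averaged 141.5 TPM with a log2 fold change of 0.073.

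The other spliceosomal members did not pass. DDX39B (UAP56), which helps load U2 and recruits export factors, was at 979, 781, 861 and 855 TPM under CR31B and at 663, 734, 694 and 750 TPM under DMSO. Its groups did not overlap either, with a log2 fold change of 0.29 (standard error 0.12, adjusted p = 0.166 by limma). All of its 28-base coding stretches also occur in the annotated readthrough gene ATP6V1G2-DDX39B, so its value is uncertain to that extent. DHX38 (Prp16) had a log2 fold change of 0.45 and DDX46 (Prp5) one of 0.27, both without overlap between groups (adjusted p = 0.104 and 0.151 by limma). With the replicate block DHX38 passed, at 0.0330. Its exons overlap those of TXNL4B on the opposite strand, which averaged 6.66 TPM with a log2 fold change of 0.386. DDX23 (Prp28) had nearly the same mean in both groups, 189 ± 14.4 TPM under CR31B and 189 ± 18.8 TPM under DMSO, with a 95% interval of the log2 fold change from -0.25 to 0.25, and 18.4% of its 28-base coding stretches occur in another annotated gene. DDX41, DHX15, DHX35 and DHX16 had values from 0.15 to 0.22. The choice of DHX38, DDX46, DDX23 and these 4 was made with their values known.

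The 16 helicases of ribosome biogenesis, which act on pre-ribosomal RNA in the nucleolus, had 13 members above 0 and a log2 fold change of 0.15 at the median. Of these 16, 2 rose (12.5%) and 14 did not pass the limma test. Over all genes tested 54.1% were above 0, the median was 0.029 and 3.45% were called higher. Over the alternatives that tested all 16, from 11 to 14 were above 0. The median ran from 0.059, without CR31B replicate 1, to 0.20, and was 0.092 without DMSO replicate 2.

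DDX56 (ENSG00000136271.11, chr7:44565417-44575051), a factor of large-subunit assembly, was at 82.3, 79.4, 72.5 and 68.9 TPM across CR31B replicates 1 to 4. In DMSO it was at 48.1, 47.0, 61.1 and 47.4 TPM, so DMSO replicate 3 was the highest of its group and still below every CR31B library. The mean rose from 50.9 ± 6.81 to 75.8 ± 6.16 TPM (SD; n = 4 per group), a log2 fold change of 0.57 (standard error 0.12, adjusted p = 0.0190 by limma, exact permutation p = 0.0286). The call was lost without DMSO replicate 1, 2 or 4, with adjusted p = 0.0570, 0.0620 and 0.0676 by limma. No annotated exon of another gene overlaps it, and 4.09% of its 28-base coding stretches occur elsewhere.

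DDX27 (ENSG00000124228.15, chr20:49219295-49244077), which acts in processing of the large-subunit rRNA, was at 31.8, 25.1, 25.1 and 25.6 TPM under CR31B. In DMSO it was at 18.8, 17.4, 17.8 and 20.1 TPM. CR31B replicate 1 was the highest library, and the other 3 CR31B libraries also lay above all of DMSO. The mean rose from 18.5 ± 1.22 to 26.8 ± 3.28 TPM (SD; n = 4 per group), with a log2 fold change of 0.51 (standard error 0.12, adjusted p = 0.0267 by limma, exact permutation p = 0.0286). The call was lost without CR31B replicate 4 or without any 1 DMSO library, at adjusted p of 0.0784 or less. DDX27 exons overlap ZNFX1 on the opposite strand, which averaged 1.05 TPM.

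The other 14 members of that list did not pass. DDX21, an abundant nucleolar helicase, was at 53.8, 38.6, 31.0 and 39.9 TPM under CR31B and at 36.3, 24.7, 28.3 and 34.8 TPM under DMSO. The groups overlapped, with a log2 fold change of 0.37 (standard error 0.18, adjusted p = 0.241 by limma) that was 0.235 without CR31B replicate 1. DDX18, which of these has the highest mean at 73.7 TPM, had a log2 fold change of 0.087 (standard error 0.18), which was -0.057 without CR31B replicate 1 and -0.024 without DMSO replicate 2. Of the 28-base coding stretches of DDX18, 35.7% also occur in other genes such as the pseudogene DDX18P5, so its level is uncertain. The lowest value of the list was -0.11, in DDX55, whose exons overlap those of EIF2B1 on the opposite strand (mean 87.8 TPM). All 28-base coding stretches of DDX47 also occur in the overlapping gene APOLD1, so its value of -0.010 is uncertain.

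**Figure D3:**
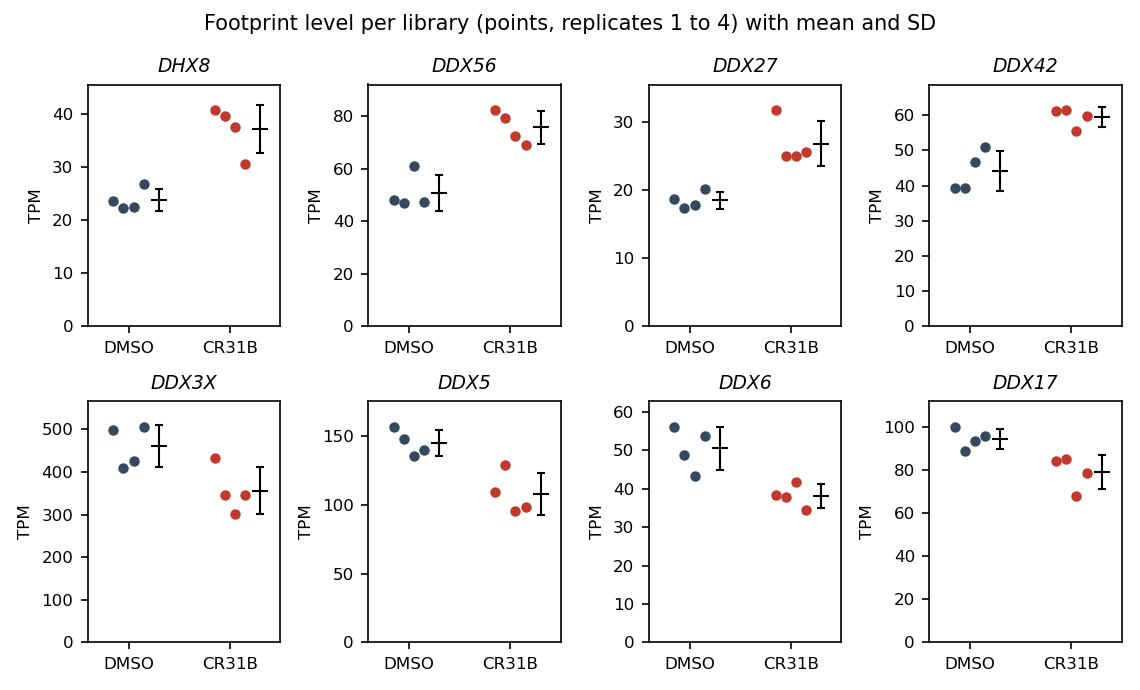
Footprint level (TPM) of 8 helicases in each library, with the group mean and SD beside the points (n = 4 each). In DHX8, DDX56, DDX27 and DDX42 all CR31B points lie above the DMSO points, in DDX5, DDX6 and DDX17 all lie below, and in DDX3X the groups overlap.

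Helicases of transcription and small-RNA processing and those of cytoplasmic mRNA leaned to lower values, without any call by limma. In the first list 1 of 5 members was above 0, with a median of -0.067, and over the alternatives that tested all 5 the median ran from -0.23, without CR31B replicate 1, to 0.025, without CR31B replicate 4. In the second, which holds DDX3X, 1 of 5 was above 0, with a median of -0.14. Over the alternatives that tested all 5 it ran from -0.26, without DMSO replicate 2, to -0.010, without DMSO replicate 3, and it was -0.374 over the 3 members with a mean of at least 10 TPM. At an unadjusted limma p under 0.05, each of these lists had 2 members lower, and the first also had 1 higher, DDX20. At that threshold 11.3% of all genes were lower and 12.0% higher, and 54.1% of all genes were above 0.

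DDX5 (p68, ENSG00000108654.16, chr17:64499616-64508199), a coactivator of transcription and part of the microRNA processing machinery, was at 109, 129, 95.3 and 98.3 TPM under CR31B. In DMSO it was at 157, 148, 136 and 140 TPM, above every CR31B library. The means were 108 ± 15.3 and 145 ± 9.40 TPM (SD; n = 4 per group), with a log2 fold change of -0.43 (standard error 0.12). It missed the threshold, with adjusted p = 0.0571 by limma (exact permutation p = 0.0286), and passed as lower with the replicate block, at 0.0269. Its paralog DDX17 (p72) was at 84.1, 85.3, 67.9 and 78.6 TPM under CR31B, and at 88.8, 93.5 and 95.6 TPM across DMSO replicates 2 to 4, with DMSO replicate 1 the highest. DDX17 did not overlap between groups either, with a log2 fold change of -0.26 (standard error 0.11, adjusted p = 0.180 by limma). DHX9, a helicase of transcription and RNA processing, was at 107 TPM in CR31B replicate 1 and from 53.1 to 61.3 TPM in the other 3, with DMSO between 54.8 and 84.8 TPM and a log2 fold change of -0.0047. Of its 28-base coding stretches, 17.6% occur in other genes such as the pseudogene DHX9P1. DDX20 (Gemin3), of the SMN complex, was the 1 member above 0, at 0.28, and its groups did not overlap (adjusted p = 0.207 by limma). Neither DDX5 nor DDX17 shares a 28-base coding stretch with another annotated gene. DDX5 exons overlap those of CEP95 on the opposite strand, which averaged 16.2 TPM with a log2 fold change of 0.041.

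DDX6 (p54, ENSG00000110367.13, chr11:118747766-118791149), the decapping and translational repression factor of P-bodies, was at 38.5, 37.8, 41.8 and 34.4 TPM under CR31B and at 56.1, 48.8, 43.5 and 53.7 TPM under DMSO. The groups did not overlap, though CR31B replicate 3 and DMSO replicate 3 lay close together. The means were 38.1 ± 3.06 and 50.5 ± 5.60 TPM (SD; n = 4 per group), and the log2 fold change was -0.39 (standard error 0.12, adjusted p = 0.0671 by limma, and 0.0673 with the replicate block). DDX6 passed as lower in 4 of 16 alternatives, without DMSO replicate 3 and under each of the 3 rescalings. Of its 28-base coding stretches, 25.0% occur elsewhere, in the pseudogenes DDX6P2 and DDX6P1. The other cytoplasmic members had values of 0.13 in DHX29, a scanning factor, -0.0042 in DHX36, which unwinds G-quadruplexes, and -0.14 in DHX34, of nonsense-mediated decay.

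Of the 5 mRNA export helicases, 3 were above 0 (60.0%, against 54.1% of all genes). Their median of 0.019 ran from -0.043 to 0.075 over the alternatives. None passed the limma test. At an unadjusted limma p under 0.05, 1, DDX39B, was higher, where 12.0% of all genes were. DHX30, a factor of mitochondrial ribosome assembly, was at 16.7, 14.8, 11.9 and 12.6 TPM under CR31B and at 16.8, 17.9, 16.8 and 18.9 TPM under DMSO. All CR31B libraries lay below all DMSO libraries by a narrow margin, with a log2 fold change of -0.32 (standard error 0.13, adjusted p = 0.159 by limma). The other mitochondrial member, DDX28, was at 0.18. In the less defined group all 4 members were above 0, as were 54.1% of all genes, with a group median of 0.093. Over the alternatives that tested all 4, from 2 to 4 were above 0 and the median ran from -0.001, without CR31B replicate 1, to 0.213, without DMSO replicate 3. DHX32 had a log2 fold change of 0.33 at a mean of 4.51 TPM (adjusted p = 0.221 by limma). Its exons overlap those of BCCIP on the opposite strand, which averaged 103.65 TPM with a log2 fold change of 0.265. The value of DHX40 was 0.019 at 59.0 TPM. Of its 28-base coding stretches, 46.0% are shared with DHX40P1 and a readthrough gene of that locus. DDX11, a DNA helicase, was at 0.25 (adjusted p = 0.338 by limma), or 0.157 without CR31B replicate 2, with 74.7% of its 28-base coding stretches shared with copies such as DDX12P. DDX25, a testis helicase just above the minimum, was at 1.03 ± 0.321 TPM under CR31B and 0.992 ± 0.142 TPM under DMSO (SD; n = 4 per group).

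The libraries of the 2 groups were fully separated in 13 helicases. In 9 of 47 members (19.1%) every CR31B library lay above every DMSO library, against 8.07% of all genes tested. In 4 of 47 (8.51%), DDX5, DDX17, DDX6 and DHX30, every CR31B library lay below, against 8.14%.

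CR31B replicate 1 stood apart from the other libraries of its group. Protein-coding genes took 61.3% of its TPM, and 51.79% to 52.3% of the TPM of CR31B replicates 2 to 4, with 52.05% to 58.42% for DMSO. It held the highest value of 25 of the 47 helicases, and DMSO replicate 2 the lowest value of 23. The same counts were not made over all genes tested, so they cannot be called particular to the helicases. The median helicase in CR31B replicate 1 was 0.31 above its DMSO mean on the log2 scale, while the other 3 libraries under CR31B gave 0.020 to 0.033. The corresponding median over all tested genes was 0.13 in CR31B replicate 1. Without that library the family median was 0.032, against -0.005 over all genes, and 28 of 47 members were above 0. DDX27, DDX56 and DHX8 were called higher in that fit. After rescaling TPM over protein-coding genes, DDX39B was also called higher and DDX3X, DDX5 and DDX6 were called lower, which makes 5 higher and 3 lower helicases. The part of the coding share in these values was not tested beyond that.

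Close paralogs were compared by their log2 ratio within each library, which no scaling of the library changes beyond the pseudocount, in 4 pairs. The ratio of DDX39A to DDX39B, a pair of export helicases, averaged -3.03 ± 0.078 over the CR31B libraries and -2.66 ± 0.18 over those with DMSO (SD; n = 4 per group). It was lower in CR31B with no overlap (difference -0.37, exact permutation p = 0.0286, 0.114 adjusted over the 4 pairs). DDX39A itself was at 106 ± 11.8 and 112 ± 11.1 TPM, while DDX39B had the higher mean in CR31B. The ratio of DDX19A to DDX19B, nuclear pore helicases, differed by 0.37 (exact permutation p = 0.143, adjusted 0.190). These genes share 89.5% and 91.2% of their 28-base coding stretches with other genes, so reads could hardly be told apart. DDX5 to DDX17 differed by -0.17 (exact permutation p = 0.114, adjusted 0.190) and DDX21 to DDX50 by 0.21 (exact permutation p = 0.314, adjusted 0.314). The last value was 0.092 without CR31B replicate 4 and 0.371 without CR31B replicate 3, and 32.9% of the 28-base coding stretches of DDX50 occur in other genes such as the pseudogene DDX50P1. A single pair at the smallest exact p that 4 against 4 libraries allow has an adjusted value of 0.114, so no pair could pass on its own.

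RNA helicases whose names fall outside the DDX and DHX series gave 4 genes that rose and none that fell, of 14 tested, by limma (5 at an unadjusted p under 0.05, 4 of them higher). Their median log2 fold change was 0.17, against 0.029 over all genes tested. Of all genes, 3.45% were called higher and 4.02% lower by limma. At an unadjusted limma p under 0.05, 12.0% of all genes were higher and 11.3% lower. ASCC3, which dissociates collided ribosomes, was at 45.5, 21.1, 39.5 and 38.3 TPM under CR31B and at 16.3, 16.7, 15.1 and 17.6 TPM under DMSO. CR31B replicate 2 was far below the other CR31B libraries but above all DMSO libraries, and the log2 fold change was 1.04 (standard error 0.21, adjusted p = 0.0148 by limma). HELZ, a helicase that binds the CCR4-NOT deadenylase, had a mean of 18.4 ± 7.50 TPM under CR31B and 9.12 ± 0.658 TPM under DMSO (SD; n = 4 per group), with CR31B replicate 3 at 29.6 TPM. Its log2 fold change was 0.87 (adjusted p = 0.0331 by limma). IGHMBP2, a ribosome-associated helicase, and MTREX, the helicase of the nuclear exosome, rose by 0.65 and 0.62 on the log2 scale (adjusted p = 0.0210 and 0.0325 by limma). MTREX exons overlap those of PLPP1 on the opposite strand, which averaged 6.13 TPM with a log2 fold change of -0.406.

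Of 48 genes for proteins that work with these helicases, 47 were tested, and 2 rose, 1 fell and 44 did not pass. The 2 were 4.26% of those tested, against 3.45% of all genes called higher, and 4.02% of all genes were called lower. The median was 0.069, against 0.029 over all genes. TFIP11, the partner of DHX15 in taking the spliceosome apart, was at 38.5, 39.9, 43.5 and 37.7 TPM under CR31B and at 19.5, 18.7, 27.2 and 20.1 TPM under DMSO. It rose by 0.89 (standard error 0.13, adjusted p = 0.00433 by limma), and DHX15 itself had a value of 0.20 (adjusted p = 0.374 by limma). TFIP11 exons overlap those of SRRD on the opposite strand, which had a mean of 12.7 TPM and fell by 0.536 on the log2 scale (adjusted p = 0.0267 by limma). NOL8, a nucleolar protein, rose from 12.1 ± 1.61 to 21.7 ± 3.45 TPM (SD; n = 4 per group; adjusted p = 0.0106 by limma), and the pseudogene NOL8P1 shares 10.9% of its 28-base coding stretches. NOL8 exons overlap those of CENPP on the opposite strand, which averaged 8.01 TPM with a log2 fold change of 0.169. CNOT1, the scaffold of the CCR4-NOT complex that binds DDX6, was at 31.9, 24.0, 19.3 and 18.8 TPM under CR31B and at 49.8, 48.3, 37.5 and 34.9 TPM under DMSO. It fell by 0.85 on the log2 scale (standard error 0.18, adjusted p = 0.0217 by limma). CNOT1 exons overlap those of SETD6 on the opposite strand, which averaged 7.84 TPM with a log2 fold change of 0.224. With the replicate block the 2 lists together gave 13 calls in place of 7, and that fit called 12.3% of all genes in place of 7.46%. Without CR31B replicate 3, CR31B replicate 4 or DMSO replicate 1 they gave 4 each, and without DMSO replicate 2 they gave 3.

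**Figure D4:**
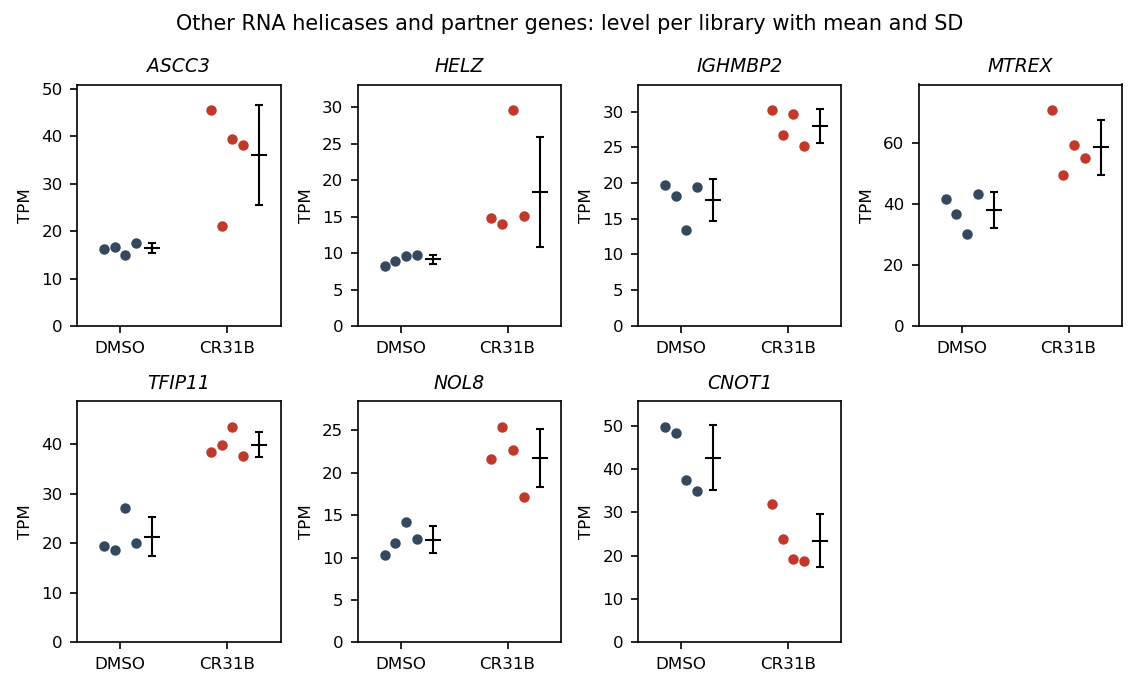
Footprint level (TPM) of the 7 genes called among other RNA helicases and partner proteins, in each library, with the group mean and SD beside the points (n = 4 each). CNOT1 is lower in all CR31B libraries and the other 6 are higher, with 1 CR31B library far from the rest in ASCC3 and in HELZ.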

How the data were processed

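The authors deposited 1 table of TPM values for 60651 genes in 8 libraries, with versioned Ensembl identifiers. Per the submitters' processing notes, cutadapt 3.2, Bowtie2 2.3.4.1, STAR 2.7.1a, RSEM 1.2.28 and DESeq2 1.32.0 were used, with the builds hg38 and GRCh38; their roles, the annotation release and the strand setting are not given in the sources used here. TPM keep no read counts, so the depth behind each value is unknown and no count test was run. A rise in 1 abundant RNA lowers all other TPM values of that library. Symbols were matched for 60481 identifiers. Gene types, coordinates and transcripts came from GENCODE release 29 (GRCh38), which matched 58405.

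Genes averaging 1 TPM or more were fitted as log2(TPM + 1) in limma 3.58.1 (R 4.3.3; eBayes with trend; treatment only), with p-values adjusted over all 11778 genes. Fold changes on this scale are understated in low genes. For single values, the exact permutation test was two-sided and covered all 70 assignments. Simulated data with 200 changed genes gave 97.8% recovery of 4-fold changes and 18.4% of 1.41-fold changes, and 3.47% of the calls were false. Noise was drawn independently for each gene and library. Shifts shared by the genes of a library were not simulated, so these rates may not hold for the real libraries. The self-test used the 11778 genes of this comparison.

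Named in full were DDX3X, all called helicases, the most abundant and most changed of each role list, and the paralog pairs, 21 in all; of the other lists, up to 4 called genes each. Helicases named beyond these were chosen after their values were seen. The members, lists and tests were chosen with earlier results of these data known.

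Replicate numbers 1 to 4 occur in both groups. After group means were removed, same-numbered libraries correlated across genes at 0.333, 0.324, 0.301 and 0.105, so the numbers were treated as pairs in an alternative fit; CR31B replicate 4 correlated more with DMSO replicate 1, at 0.134. Alternatives covered the pseudocount, filter, scaling, variance model, block and each library left out. Sharing of coding sequence was counted over stretches of 28 bases. Python 3.11.15 with NumPy 2.4.6, pandas 2.3.3, SciPy 1.17.1 and matplotlib 3.10.9 were used for everything else.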

Additional observations from a re-analysis of the deposited data

Results flagged for a closer look

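With 4 libraries in each of 94 groups (47 helicases under each treatment), 4 groups held a library far from the other 3. The measure was the distance to the closest other library divided by the full spread, and chance alone gives about 4.7 such groups. DDX27 reached 31.75 TPM in CR31B replicate 1, while the rest of that group lay between 25.05 and 25.55 TPM. DDX56 reached 61.08 TPM in DMSO replicate 3, with the rest between 46.96 and 48.13 TPM. DDX46 reached 35.51 TPM in DMSO replicate 4, with the rest between 30.1 and 30.66 TPM. DDX49, of ribosome biogenesis, was low in CR31B replicate 4, at 43.57 TPM, with the rest between 52.98 and 54.42 TPM.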

How the results depend on the processing

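With the replicate block, 1453 genes were called in place of 879, and 7 helicases in place of 4 (DHX38 added as higher, DDX3X and DDX5 as lower); the 2 lists of other helicases and partners gave 13 calls in place of 7. The block changed no other call among the helicases. Without a filter on low values, 442 genes and 2 genes of those lists were called. Leaving out single libraries gave from 405 to 785 genes, from 1 to 4 helicases and from 3 to 7 genes of the lists. Rescaling over protein-coding genes, which also tests only those, called 8 helicases, beside 1236 genes in all. The DDX3X value was -0.374 with the block and passed (limma adjusted p of 0.0466), as did -0.339 after that rescaling (0.0430); without single libraries it ran from -0.470 to -0.298. The ratios of paralogs kept their sign in all 10 alternatives each; their p-values say nothing of stability, since a single pair cannot reach an adjusted p under 0.114, or an exact p under 0.125 within 4 pairs. Signs turned only for values near 0. Outside the 21 helicases named in full, they turned in DHX36 and DHX9 (6 alternatives each), DDX23 and DDX47 (5 each), DDX54 (3) and DHX57 (2). Among the 21 they turned in DDX1, DDX18, DDX25 and DHX40. DDX1 was 0.025 without CR31B replicate 4, and DDX18 was -0.057 without CR31B replicate 1 and -0.024 without DMSO replicate 2. DDX25 was -0.025 with equal medians, -0.081 without CR31B replicate 3, -0.014 without DMSO replicate 1 and -0.001 without DMSO replicate 4. DHX40 was -0.025 with equal medians, -0.009 without CR31B replicate 1, -0.001 without CR31B replicate 3 and -0.080 without DMSO replicate 2. Over all single libraries left out, DDX1 ran from -0.142 to 0.025, DDX18 from -0.057 to 0.175, DDX25 from -0.081 to 0.075 and DHX40 from -0.080 to 0.121. The cause of these changes was not tested.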
